A study of Mus musculus with 18 samples.

Results

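The nuclear genes of the oxidative phosphorylation chain were followed in the kidney cortex of mice given the nephrotoxin AAI. They were taken by symbol: every gene whose name begins with Nduf, Uqcr, Atp5 or Cox4 to Cox8, together with Sdha, Sdhb, Sdhc and Sdhd. The rule found 92 of the 24062 genes in the table. Of these, 85 reached at least 1 CPM (the deposited unit, a gene's reads scaled to the same library total in every library) in at least 3 of the 18 libraries and were tested among 14604 genes. By role they are 7 core subunits of complex I, 29 accessory subunits of complex I, 7 complex I assembly factors, 4 subunits of complex II, 8 of complex III, 11 of complex IV, 9 tissue-restricted or related forms of complex IV subunits, 15 of complex V, and 2 genes with Atp5 names (Atp5s and Atp5sl) that are not subunits.

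The libraries were made from total RNA of whole kidney cortex of C57Bl/6 mice and fall into 6 groups of 3. The genotype was Klf6fl/fl, in which the gene of the transcription factor KLF6 carries loxP sites, or Klf6PTKO, in which the series' title says that KLF6 is lost in the proximal tubule. Each genotype has a DMSO (vehicle) group, a group given AAI over 3 weeks, and a group that went through the same AAI course followed by another 3 weeks of remodeling. AAI is the usual abbreviation of aristolochic acid I, a plant compound that injures the proximal tubule. The last groups carry 6wk in their titles and are called 6 weeks here, and the 3 week groups are called 3 weeks. The labels do not say at which week the DMSO mice were sampled, which promoter drives the Cre recombinase, the age or the sex. They do not say that the libraries come from separate animals either, so the p-values measure only the spread between these libraries.

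Oxidative phosphorylation makes most of the ATP of a proximal tubule cell, which spends it on reabsorption and holds many mitochondria. Complex I takes electrons from NADH and complex II from succinate. Both pass them to ubiquinone, complex III moves them on to cytochrome c, and complex IV hands them to oxygen. Complexes I, III and IV pump protons while they do so, and complex V, the ATP synthase, lets the protons back and makes ATP. Complex II is encoded by nuclear genes alone, whereas the other complexes also hold subunits made from mitochondrial DNA, which are not described here. The nuclear factors NRF1, GABP of the ETS family, YY1 and the estrogen-related receptors (ERR) are textbook regulators of these nuclear genes.

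The stretches before the start of 4 members are printed to show what such promoters look like: 3 members that were lower after AAI and that carry 1 of these elements, and Cox7a2l, which was higher and carries none. The 4 were picked by change and element together, so they do not show whether the elements go with the change. Atp5e, Atp5k, Cox8a, Ndufa11, Ndufaf5, Ndufb7 and Uqcrh also carry at least 1 element, counted as below, and were not called in fl/fl at 3 weeks. Each is the 250 bases before the annotated start, 5′ to 3′ on the gene's strand, from RefSeq on GRCm38.p6, and none overlaps an exon of GENCODE M21. Capitals mark the exact match on either strand. Ndufaf4 lies at chr4:24897833-24898082 on the plus strand with the NRF1 element on both strands, overlapping. Atp5g3 lies at chr2:73911327-73911576 on the minus strand with an ERR element, and Ndufaf1 at chr2:119662835-119663084 on the minus strand with an ETS core. Cox7a2l lies at chr17:83514334-83514583 on the minus strand, inside the gene because a longer transcript starts further upstream.
Ndufaf4: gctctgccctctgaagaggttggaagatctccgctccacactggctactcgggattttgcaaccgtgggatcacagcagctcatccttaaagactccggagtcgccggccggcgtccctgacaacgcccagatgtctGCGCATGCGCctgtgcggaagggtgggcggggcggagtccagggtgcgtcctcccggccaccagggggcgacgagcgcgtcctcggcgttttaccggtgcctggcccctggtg
Atp5g3: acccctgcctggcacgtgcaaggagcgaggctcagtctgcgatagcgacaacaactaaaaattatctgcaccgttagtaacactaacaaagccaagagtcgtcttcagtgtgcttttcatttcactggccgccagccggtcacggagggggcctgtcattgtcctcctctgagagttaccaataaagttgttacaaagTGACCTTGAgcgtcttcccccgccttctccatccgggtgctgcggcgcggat
Ndufaf1: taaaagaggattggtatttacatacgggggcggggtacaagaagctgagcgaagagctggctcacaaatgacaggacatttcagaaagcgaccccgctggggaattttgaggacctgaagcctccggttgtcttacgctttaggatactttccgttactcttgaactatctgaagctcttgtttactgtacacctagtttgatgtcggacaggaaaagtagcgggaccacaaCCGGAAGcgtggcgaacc
Cox7a2l: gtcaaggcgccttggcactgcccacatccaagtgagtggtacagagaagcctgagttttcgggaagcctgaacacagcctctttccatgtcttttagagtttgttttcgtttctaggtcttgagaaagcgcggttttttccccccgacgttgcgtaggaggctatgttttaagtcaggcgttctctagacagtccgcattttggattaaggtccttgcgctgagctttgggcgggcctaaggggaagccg

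Promoters of 76 members could be matched, and genes with an exact match in any listed promoter were counted, from 250 bases before to 50 bases after the start. The NRF1 element GCATGCGC was found in 12 members (15.79%) and in 3.05% of all 27025 genes with a promoter in the table. The ETS core CCGGAAG was found in 17 members (22.37%) against 9.93% of all these genes. The YY1 core AAGATGGCG stood in 8 members (10.53%) against 1.64%, and the ERR element TCAAGGTCA in 2 members, Atp5g3 and Sdhd (2.63%), against 0.47%. These are matches of letters, with no test and no data on binding.

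The recovered depth ranged from 11722625 reads (fl/fl 6 weeks replicate 2) to 27213219 (PTKO 3 weeks replicate 2), so 1 read was worth 0.0367 to 0.0853 CPM. Klf6 itself stood at 40.4 ± 1.70 CPM in fl/fl DMSO and 46.7 ± 8.82 in PTKO DMSO (SD, n = 3), and at 252 to 284 CPM in the mean of each AAI group. In whole cortex, without counts by exon, this does not check the genotype label. Markers of the proximal tubule were present in every library, as the label of the tissue requires. PTKO DMSO replicate 2 and PTKO 6 weeks replicate 2 held the fat markers Ucp1 (12.5 and 14.4 CPM) and Adipoq (6.78 and 35.2 CPM), which were at most 0.35 CPM elsewhere. Fl/fl 6 weeks replicate 2, the shallowest library, had a higher mean of the 12 proximal tubule markers, 8.62 on the log2(CPM + 1) scale, than the other 2 of its group, 7.52 and 7.74. This mean also spread within PTKO, from 7.86 to 8.55 at 3 weeks and from 8.08 to 8.94 at 6 weeks. The counts of calls are given below also without these 3 libraries.

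After 3 weeks of AAI the fl/fl cortex held fewer reads of almost every subunit gene. The 92 genes together summed to 19909.5 to 20242 CPM in fl/fl DMSO and to 12163 to 12696 CPM at 3 weeks, so their share of all reads went from 2.005% to 1.25%. Of the 85 tested members 64 were lower (limma, Benjamini-Hochberg adjusted p under 0.05), where 18.2% of all tested genes were lower, and 3 were higher, where 58% of all tested genes were higher. The median change of the members was -0.47 on the log2(CPM + 1) scale, and that of all tested genes was 0.45, so the members' median lay 0.92 under that of the table. CPM are shares of a library, so each value also depends on all other genes. After median-of-ratios scaling, which brings the median of all genes to 0.03, the members' median was -0.92 and the split was 82 lower and 2 higher. Without the 3 libraries that stand apart, none of them in these groups, 65 were lower. In whole cortex, fewer cells of a type and less RNA per cell cannot be told apart. In the same libraries the 12 proximal tubule markers summed to 19.6% of DMSO, with all 12 lower, and all 9 tested macrophage markers were higher. Their part in the result was not tested.

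**Figure D1:**
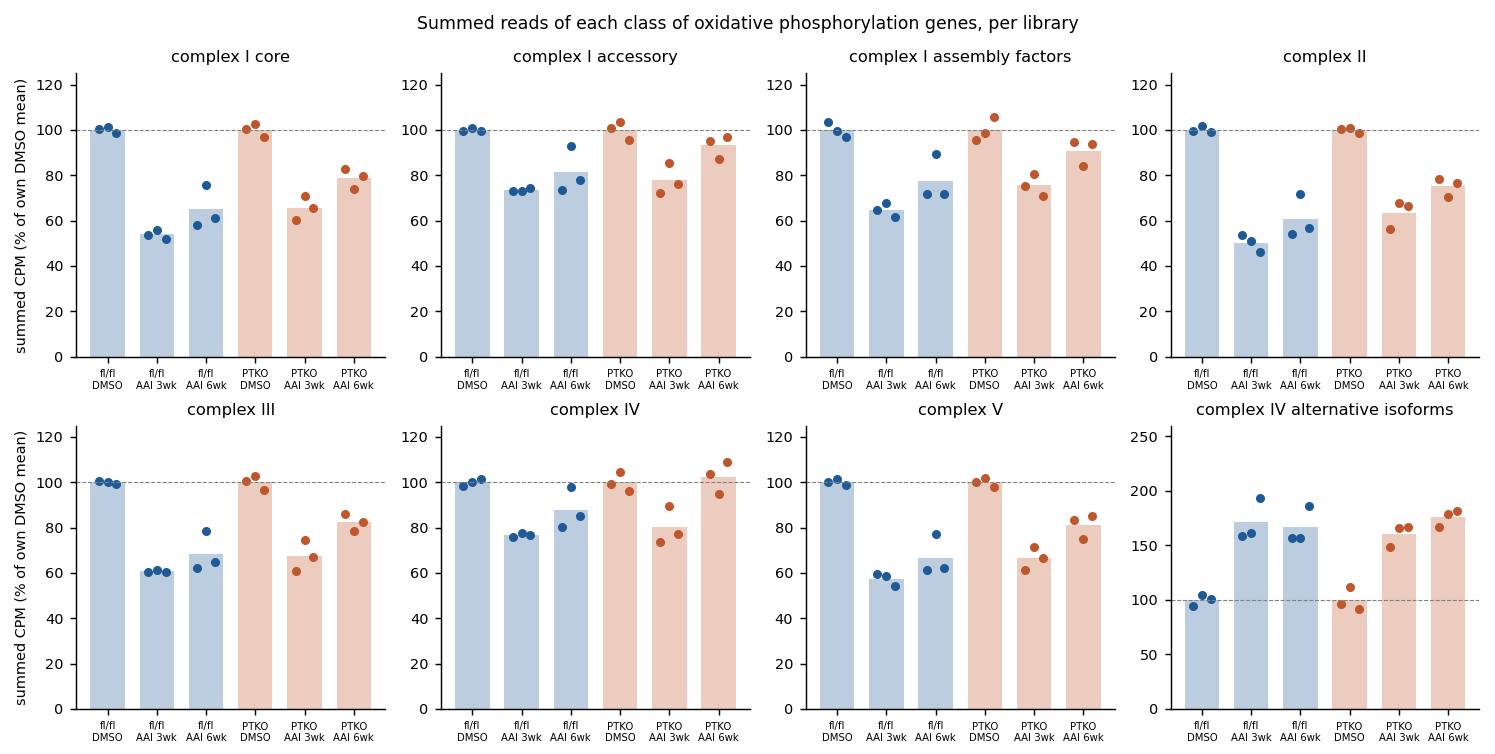
Summed CPM of each class of genes in each library, as a percentage of the mean of the 3 DMSO libraries of the same genotype (y axis, percent; the panel of alternative isoforms has its own scale). Bars are group means, points are libraries and the dashed line is 100%. The lowest mean is that of complex II in fl/fl at 3 weeks, 50.2%, and complex IV stood at 102% in PTKO at 6 weeks. The alternative isoforms stood at 161% to 176% after AAI, a sum made up mostly of Cox7a2l.

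The 7 core subunits of complex I, which carry the electrons from NADH to ubiquinone, were all lower in fl/fl at 3 weeks, and their sum stood at 53.9% of the DMSO mean. Ndufs1, an iron-sulfur subunit of the electron input arm, had the largest fall of all members. It read 349.8, 357 and 339.8 CPM in fl/fl DMSO and 148, 135 and 106 CPM at 3 weeks. The groups did not overlap, and the change was -1.43 ± 0.13 (SE), adjusted p = 9.83e-08. Ndufv1, the FMN-binding subunit that accepts electrons from NADH, went from 303, 309 and 296 CPM to 165, 148 and 143 CPM (-0.99, adjusted p = 2.07e-07). Ndufs7 and Ndufs8, iron-sulfur subunits of the arm that links to the membrane, fell by 0.68 and 0.51 on the log2 scale.

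Accessory subunits surround the core of complex I, and they moved less evenly. Of 28 tested, 20 were lower, 8 were not called and none was higher, with a median of -0.39 and a sum at 73.5% of DMSO. Ndufa10 went from 249, 256 and 260.1 CPM to 133, 132 and 128 CPM, with no overlap (-0.95 ± 0.09 (SE), adjusted p = 9.60e-08). Ndufb8, the most abundant by CPM, went from 217, 226 and 216 CPM to 181, 162 and 163 CPM (-0.38, adjusted p = 0.00629). Those not called were Ndufa1, Ndufa2, Ndufa3, Ndufa7, Ndufa11, Ndufab1, Ndufb2 and Ndufb7, named because of the contrast with the rest. Their estimates ran from -0.39 (Ndufab1) to 0.17 (Ndufa7). Which members go uncalled, here and in the classes below, depends on the scaling. The median of all tested genes was 0.45 in this comparison, and median-of-ratios scaling called 82 of all 85 tested members lower. Ndufa7 read 85.2, 93.9 and 88.0 CPM in DMSO and 82.4, 100.4 and 120.5 CPM at 3 weeks, and the groups overlapped.

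The assembly factors of complex I build the enzyme but are not part of it. Here 4 of 7 were lower. Ndufaf6 read 14.6, 12.9 and 14.7 CPM in DMSO and 5.41, 6.28 and 5.15 CPM at 3 weeks (-1.19 ± 0.16 (SE), adjusted p = 6.26e-06), and Ndufaf4 read 53.1, 50.2 and 44.4 CPM, then 23.3, 24.2 and 18.4 CPM (-1.14, adjusted p = 4.76e-06). Ndufaf1 (-0.74) and Ndufaf7 (-0.42) were the other lower ones. Ndufaf2, Ndufaf3 and Ndufaf5 were not called, with estimates of -0.07, -0.24 and -0.01, and Ndufaf2 shares 65.1% of its 31-base words with transcripts of other genes, so its count is uncertain. Assembly factors of all complexes whose symbols fall outside the rule gave 18 lower and 2 higher of 36 tested. Acad9 and Ecsit, both needed to assemble complex I, changed by -1.38 and -1.17 (adjusted p = 1.18e-07 and 2.16e-09), and Cox15, which makes the heme of complex IV, by -1.14 (adjusted p = 1.90e-08). Uqcc2 and Sdhaf2, assembly factors of complexes III and II, were the 2 higher ones.

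In complex II, succinate dehydrogenase, all 4 genes were lower and their sum stood at 50.2% of DMSO, the lowest share of any class, with no test between classes. Sdha, the flavoprotein that oxidizes succinate, read 1074, 1099.8 and 1055 CPM in DMSO and 539, 482 and 418 CPM at 3 weeks, a change of -1.17 ± 0.12 (SE), adjusted p = 2.83e-07. Sdhb, the iron-sulfur subunit, went from 383, 379 and 388 CPM to 201, 194 and 195 CPM (-0.96, adjusted p = 7.25e-07). The membrane anchors Sdhc and Sdhd changed by -0.83 and -0.67. In none of the 4 did a 3 week library reach a DMSO library.

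Of the 8 genes of complex III, 7 were lower, and the sum stood at 60.6%. Uqcrc2, core protein 2, went from 535, 521 and 509 CPM to 256, 252 and 229.5 CPM (-1.08 ± 0.10 (SE), adjusted p = 1.22e-07). Uqcrc1, core protein 1 and the most abundant by CPM, went from 511, 517 and 499 CPM to 279, 293 and 310.2 CPM (-0.79, adjusted p = 1.11e-06). The Rieske iron-sulfur protein Uqcrfs1, which moves electrons inside the complex, changed by -1.04. The hinge protein gene Uqcrh was the member not called (-0.16). Cyc1, the cytochrome c1 subunit of complex III that the symbol rule leaves out, went from 385, 384 and 365 CPM to 209, 219.5 and 234 CPM (-0.78, adjusted p = 5.44e-06).

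In complex IV, cytochrome c oxidase, 8 of its 11 usual subunits were lower and the sum stood at 76.8% of DMSO. The 8 include Cox7c, with 1.09, 0.762 and 0.793 CPM in DMSO and 0.373, 0.188 and 0.480 CPM at 3 weeks. No 3 week library of Cox7c reached 1 CPM, and it passed the filter only through libraries of other groups. Nothing is read from its call. Ndufa4, named after complex I but a subunit of complex IV, fell furthest, from 287, 297 and 303 CPM to 168, 179 and 135 CPM (-0.88 ± 0.14 (SE), adjusted p = 2.63e-05). Cox7a2 went from 187, 188 and 201 CPM to 134, 128 and 118 CPM (-0.60, adjusted p = 1.54e-04), and Cox6a1, the most abundant by CPM, from 513, 526 and 489 CPM to 358, 364 and 391 CPM (-0.46, adjusted p = 2.81e-04). Cox4i1 changed by -0.37 (adjusted p = 9.00e-04) and Cox6b1 by -0.21 (adjusted p = 0.0348). Cox5a, Cox5b and Cox8a were not called, with estimates of -0.11, -0.03 and -0.20. Cox5b read 86.1, 89.9 and 103 CPM in DMSO and 88.2, 86.9 and 97.5 CPM at 3 weeks, so the groups overlapped.

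In complex V 10 of 13 tested genes were lower, and the sum stood at 57.4%. Most of this sum is Atp5a1 and Atp5b, with means of 2347 and 3389 of 8199 CPM in fl/fl DMSO. The median change of the 13 genes was -0.34, beside -0.37 for the usual subunits of complex IV. The lower sum of complex V is thus not a larger fall of its typical gene. Atp5b, the catalytic beta subunit, had the highest CPM of all members. It read 3398, 3469 and 3301 CPM in DMSO and 1770.2, 1723 and 1566 CPM at 3 weeks, a change of -1.01 ± 0.14 (SE), adjusted p = 7.25e-06. Atp5c1, the gamma subunit of the turning stalk, went from 534, 534 and 507 CPM to 313, 311 and 298 CPM (-0.77, adjusted p = 1.88e-06), and Atp5g3, a gene of the membrane ring, from 547, 579.8 and 543 CPM to 350.0, 346 and 335 CPM (-0.69, adjusted p = 1.63e-05). Atp5e, the small epsilon subunit of the same stalk as Atp5c1, was not called at 3 weeks, with 95.8, 92.8 and 98.6 CPM in DMSO and 84.6, 91.3 and 99.8 CPM after AAI (-0.06). Atp5g1 (-0.28) and Atp5k (-0.24) were not called either. Atp5o, which joins the peripheral stalk to the head and shares 49.3% of its 31-base words with transcripts of other genes, changed by -0.25, adjusted p = 0.00779.

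In PTKO cortex the same 3 weeks gave largely the same list. The sum of all members ranged over 20613 to 21772 CPM in PTKO DMSO and over 13688 to 16244 CPM at 3 weeks, or 70.3% of the mean, against 62.4% in fl/fl. Of the 85 tested members 63 were lower, where 13.9% of all tested genes were lower, and 3 were higher, where 57.2% were. The median was -0.40 against 0.42 for all tested genes. With median-of-ratios scaling 80 were lower and 1 was higher, and 60 were lower without the 3 libraries that stand apart. Of the 64 members lower in fl/fl, 57 (89.1%) were lower in PTKO too, which is 90.5% of the PTKO list.

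By class, 7 of 7 core and 19 of 28 accessory subunits of complex I, 4 of 7 assembly factors, 4 of 4 genes of complex II, 7 of 8 of complex III, 7 of 11 of complex IV and 12 of 13 of complex V were lower in PTKO at 3 weeks. Their sums stood at 65.7%, 77.9%, 75.5%, 63.4%, 67.5%, 80.0% and 66.4% of PTKO DMSO, in that order. Ndufs1 read 347, 343 and 358 CPM in PTKO DMSO and 167, 209 and 199 CPM at 3 weeks (-0.87 ± 0.13 (SE), adjusted p = 3.24e-05). Sdha read 1138, 1094 and 1131 CPM, then 594, 721 and 725 CPM (-0.73 ± 0.12 (SE), adjusted p = 6.55e-05). For both genes PTKO replicate 1 was the lowest of the 3 AAI libraries, and no AAI library reached a DMSO library. Ndufv3, a small subunit of the input arm of complex I, went from 209, 216 and 188 CPM to 112, 129 and 109 CPM (-0.80, adjusted p = 8.84e-06), close to its change in fl/fl (-0.84).

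**Figure D2:**
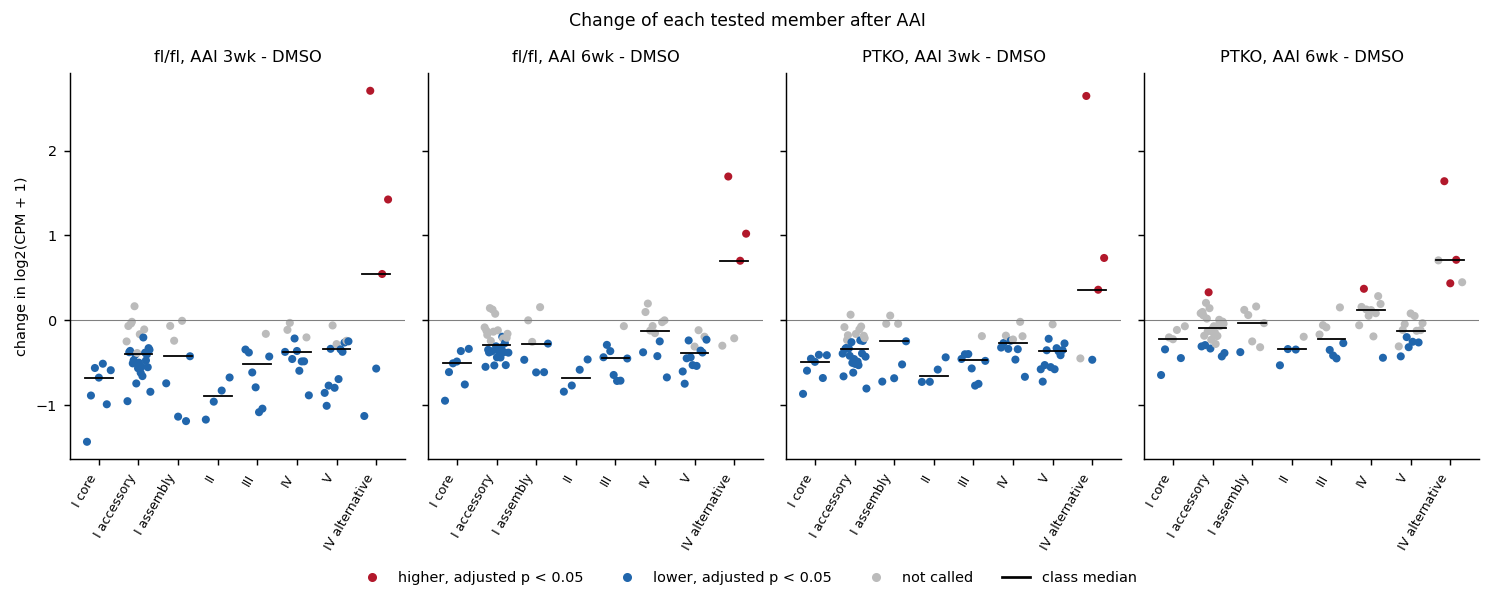
Change of each tested member after AAI (y axis, difference in log2(CPM + 1), AAI minus DMSO of the same genotype) by class (x axis), in 4 comparisons. Each point is a gene, coloured by the limma call over all tested genes, and the black bars are class medians. The class medians of complexes I, II, III and V lie under 0 in all 4 panels, that of complex IV is 0.12 in PTKO at 6 weeks, and Cox6b2 is the highest point in each panel.

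At 6 weeks, when AAI had been over for 3 weeks, the fl/fl cortex still held less of most members. The sum was 13102 to 16505 CPM, or 71.9% of DMSO, with fl/fl replicate 2 the highest library. Of the 85 tested members 53 were lower, where 13.9% of all tested genes were lower, and 3 were higher, where 59.8% were. The members' median was -0.35, and that of all tested genes 0.45. Median-of-ratios scaling gave 78 lower and 3 higher, and 63 were lower without the 3 libraries that stand apart. All 7 core subunits of complex I and all 4 genes of complex II were lower, with 16 of 28 accessory subunits, 4 of 7 assembly factors, 7 of 8 genes of complex III, 10 of 13 of complex V and 4 of 11 of complex IV.

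Ndufs1 read 159.7, 225 and 163 CPM in fl/fl at 6 weeks (-0.95 ± 0.13 (SE), adjusted p = 1.23e-05 against DMSO). Sdha read 542, 715 and 558 CPM (-0.84 ± 0.12 (SE), adjusted p = 1.42e-05), and Atp5b 1853, 2374 and 1867 CPM (-0.75 ± 0.14 (SE), adjusted p = 1.80e-04). In each of these genes replicate 2 stood above the other 2 libraries but under every DMSO library. Within complex IV, Ndufa4 (-0.67), Cox7a2 (-0.42), Cox4i1 (-0.38) and Cox7b were the lower ones. Cox5a and Cox5b had estimates of 0.10 and 0.20 and were not called. Cox6a1, which had fallen at 3 weeks, read 438, 509 and 460.5 CPM and was not called against DMSO (-0.12, adjusted p = 0.240).

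In PTKO at 6 weeks fewer members were called, though no difference between the genotypes in the response passed the interaction test given further on. The sum was 16956 to 18934 CPM, or 85.8% of PTKO DMSO. Of the 85 tested members 23 were lower, where 11.4% of all tested genes were lower, and 5 were higher, where 53.7% were. The median was -0.11 against 0.36 for all tested genes, so it lay 0.47 under the table's. This count depends on the scaling: median-of-ratios scaling gave 70 lower and 2 higher, and quantile normalization gave 36 lower and 5 higher. It was 15 without PTKO DMSO replicate 2, 14 without PTKO 6 weeks replicate 2 and 13 without the 3 libraries that stand apart. All 23 were lower in fl/fl at 6 weeks too, and they are 43.4% of the fl/fl list.

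The lower members at this time were 3 genes of the complex I core, Ndufs1 and Ndufv1 among them, 3 genes of complex II, 4 of complex III, 5 of complex V, 5 accessory subunits, Ndufaf1, Ndufa4 and Atp5s. Ndufs1 read 248, 215 and 207 CPM (-0.65 ± 0.13 (SE), adjusted p = 6.58e-04), and Sdha 815, 729.9 and 785 CPM (-0.53 ± 0.12 (SE), adjusted p = 0.00132), with no overlap with PTKO DMSO. The sums of complexes I core, II, III and V stood at 78.9%, 75.1%, 82.4% and 81.2% of DMSO. On the CPM scale complex IV stood at 102%, and of its 11 usual subunits only Ndufa4 was lower. The median change of these 11 was 0.12, which lay 0.24 under that of all tested genes (0.36). Cox5b read 97.6, 113 and 105 CPM in PTKO DMSO and 132, 121 and 158 CPM at 6 weeks (0.37 ± 0.10 (SE), adjusted p = 0.00502), but its sign turned with median-of-ratios scaling (-0.02). Ndufa7 was called higher (0.33, adjusted p = 0.0223) and turned likewise (-0.06), as did Cox7a1 with quantile normalization (0.44 and -0.25).

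The step from 3 to 6 weeks was tested directly within each genotype. In fl/fl 11 members were higher at 6 than at 3 weeks, where 7.16% of all tested genes were, and 2 were lower (Cox6b2 and Atp5e), where 6.07% were. In PTKO 30 were higher, where 2.92% were, and 1 was lower (Cox6b2), where 8.26% were. The median difference was 0.19 in fl/fl and 0.27 in PTKO, against 0.00 and -0.06 for all tested genes. Neither list is stable: with only the 2 groups compared in the fit, no member was called higher in either genotype.

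For fl/fl the count higher was 5, 5 and 2 without 3 weeks replicate 1, 2 and 3, 1 without 6 weeks replicate 2 and 7 without 6 weeks replicate 3, and 0 without the 3 libraries that stand apart. For PTKO it was 4 and 6 without 3 weeks replicate 1 and 3, 8 and 11 without 6 weeks replicate 1 and 3, 42 without the 3 libraries that stand apart and 45 with DESeq2. The member with the smallest adjusted p among those higher in fl/fl was Ndufa10, with 133, 132 and 128 CPM at 3 weeks and 154, 203 and 168 CPM at 6 weeks (0.41 ± 0.09 (SE), adjusted p = 0.00982), followed by Ndufv3 (0.46), Atp5sl (0.38), Cox6a1 (0.34), Ndufs1 (0.48) and Uqcrc2 (0.37). In PTKO it was Cox5b, with 90.0, 98.3 and 89.6 CPM, then 132, 121 and 158 CPM (0.55 ± 0.10 (SE), adjusted p = 0.00535). By adjusted p Ndufa8 (0.40), Cox6a1 (0.46), Cox7a1 (0.90), Cox5a (0.43), Atp5c1 (0.41) and Ndufb11 (0.37) followed among the higher ones, and 6 of the 11 usual complex IV subunits were among the 30. Atp5e behaved otherwise in fl/fl: it read 67.4, 76.8 and 67.5 CPM at 6 weeks, under its 3 week values and under DMSO (-0.38 and -0.44).

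Whether the members differ between genotypes was tested at each treatment. Under DMSO none of the 85 was called (limma, adjusted p under 0.05 over all genes), where 0.288% of all tested genes were called, and 8 had an unadjusted p under 0.05. edgeR and DESeq2 on the recovered reads called none either, with 7 and 8 at an unadjusted p under 0.05. The median difference PTKO minus fl/fl was 0.09, and 75 of 85 estimates were above 0. At 3 weeks 11 members were higher in PTKO, where 6.22% of all tested genes were, and none was lower, where 8% were. At 6 weeks 39 were higher, where 3.27% were, and 1, Ndufc2, was lower, where 11.8% were.

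**Figure D3:**
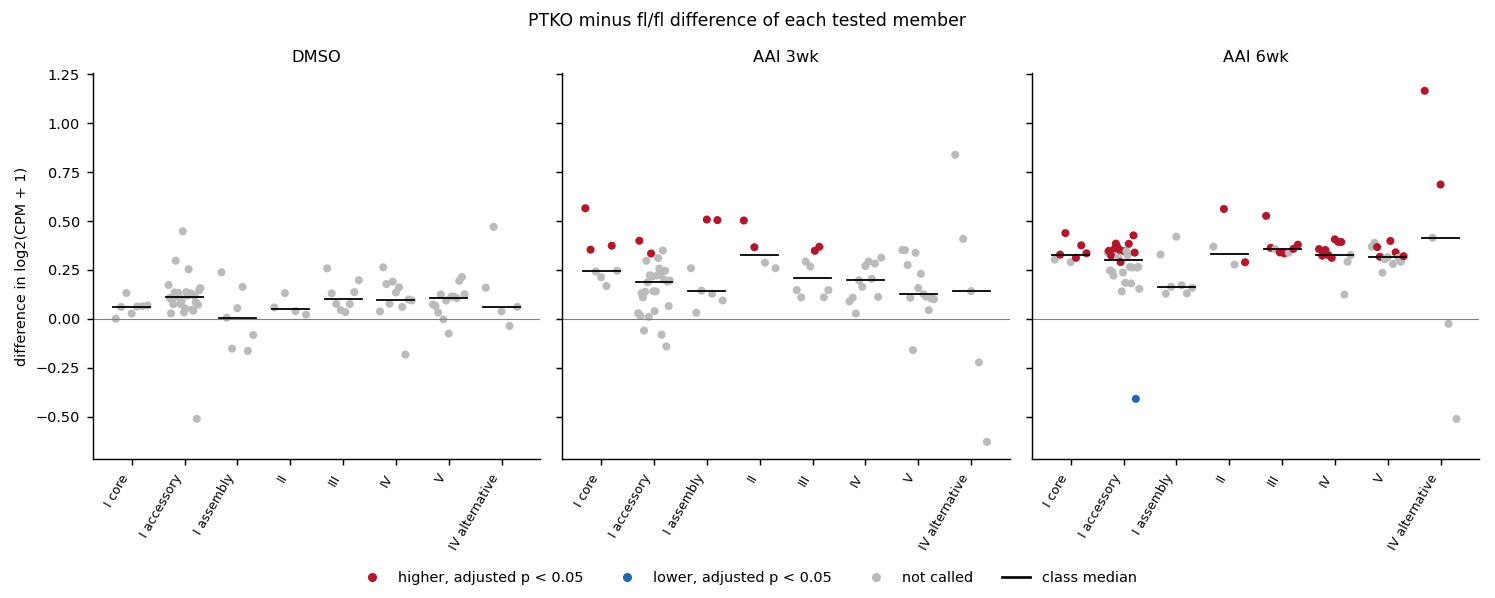
PTKO minus fl/fl difference of each tested member (y axis, log2(CPM + 1)) by class (x axis) under DMSO, after 3 weeks of AAI and at 6 weeks. Points are genes coloured by the limma call and black bars are class medians. No point is called under DMSO, 11 are called higher at 3 weeks, and 39 are called higher and 1 lower at 6 weeks.

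The 11 members higher in PTKO at 3 weeks were 3 genes of the complex I core, Ndufs1 and Ndufv1 among them, the accessory subunits Ndufa10 and Ndufa9, the assembly factors Ndufaf4 and Ndufaf6, Sdha and Sdhb, and Uqcrc2 and Uqcrfs1. None belonged to complex IV or V, though 11 of 11 usual complex IV estimates and 12 of 13 of complex V were above 0. Their medians were 0.20 and 0.13, beside 0.20 for all members. Ndufa10 in fl/fl stood at 133, 132 and 128 CPM, against 161, 188 and 172 CPM for PTKO, with no overlap (0.40 ± 0.09 (SE), adjusted p = 0.0109), and Ndufs1 at 148, 135 and 106 CPM, against 167, 209 and 199 CPM (0.57 ± 0.13 (SE), adjusted p = 0.0144). The count was 4 without fl/fl replicate 2, 0 without fl/fl replicate 3, 22 without PTKO replicate 1, 0 without PTKO replicate 2 and 2 without PTKO replicate 3. It was 2 with only these groups in the fit, 22 with DESeq2 and 18 without the 3 libraries that stand apart, none of which is in the groups compared. None of the 11 calls held under every alternative. At 3 weeks 10 of 12 proximal tubule markers were also higher in PTKO and 9 of 9 macrophage markers lower, and their part in the result was not tested.

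At 6 weeks the members higher in PTKO came from every complex: 5 of 7 core and 11 of 28 accessory subunits of complex I, 2 of 4 genes of complex II, 6 of 8 of complex III, 8 of 11 of complex IV, 5 of 13 of complex V and 2 of the alternative forms. Uqcr10, a small subunit of complex III, stood in fl/fl at 107, 132 and 119 CPM, against 179, 166 and 170.2 CPM for PTKO (0.53 ± 0.08 (SE), adjusted p = 0.00139). Its DMSO values also differed without overlap, 159, 168 and 157 CPM against 192, 199.6 and 188 CPM, though that was not called (0.26, adjusted p = 0.399). Sdhb in fl/fl stood at 198, 271 and 211 CPM, against 350.3, 303 and 344 CPM for PTKO (0.56 ± 0.11 (SE), adjusted p = 0.00529), and Ndufs3 at 46.0, 54.2 and 54.1 CPM, against 71.2, 65.1 and 73.3 CPM (0.44 ± 0.09 (SE), adjusted p = 0.00670). Ndufa8, Ndufb5, Atp5o, Cox4i1 and Ndufa6, the next by adjusted p, were higher by 0.32 to 0.38.

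In all 39 of these genes replicate 2, the fl/fl library that stands apart, was the highest of the 3 fl/fl libraries, and the count rests on single libraries. That library was set apart by its higher proximal tubule markers, so counts without it are not an independent check. The count was 66 without fl/fl replicate 2, and 3, 6, 9 and 13 without fl/fl replicate 1, fl/fl replicate 3, PTKO replicate 1 and PTKO replicate 3. It was 67 without the 3 libraries that stand apart, 61 with median-of-ratios scaling, 66 with DESeq2 and 0 when only these groups entered the fit. The members' median difference stayed between 0.25 and 0.46 in all of these fits. At 6 weeks 4 of 12 proximal tubule markers were higher in PTKO, and 6 of 9 macrophage and 4 of 7 fibroblast markers were lower, which was not tested as a part of the result.

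The difference between the genotypes in the response to AAI was tested as an interaction, and no member was called at either time. At 3 weeks 0.281% of all tested genes were called, and 9 members had an unadjusted p under 0.05. At 6 weeks 0.0685% were called, and 12 members had an unadjusted p under 0.05. edgeR and DESeq2 called no member at either time, with 5 and 5 at an unadjusted p under 0.05 at 3 weeks and 31 and 28 at 6 weeks, and 1 member was called at 6 weeks without fl/fl replicate 2, or 2 without the 3 libraries that stand apart. The smallest unadjusted p at 3 weeks was that of Ndufs1, whose fall was smaller in PTKO by 0.56 (95% interval 0.16 to 0.97, adjusted p = 0.134). At 6 weeks it was Sdhb, with 0.43 (95% interval 0.11 to 0.75, adjusted p = 0.245). The members' median interaction was 0.11 at 3 weeks and 0.23 at 6 weeks, beside -0.02 and -0.08 for all tested genes.

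Ndufc2, an accessory subunit of the membrane arm of complex I, went against the rest. It read 122, 123 and 120.1 CPM in fl/fl DMSO and 96.3, 99.7 and 64.4 CPM in PTKO DMSO, a difference of -0.51 that was not called (adjusted p = 0.181). At 3 weeks it stood at 84.0, 89.1 and 75.6 CPM in fl/fl, against 70.2, 82.3 and 72.9 CPM for PTKO, and at 6 weeks at 74.4, 90.7 and 88.5 CPM, against 63.5, 61.2 and 64.9 CPM. It was thus lower in PTKO without overlap in every treatment but 3 weeks. The call at 6 weeks (-0.41, adjusted p = 0.0457) was lost under 15 of 17 alternatives. This gene was picked out after its values were seen.

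The forms of complex IV subunits that are known from other tissues, or that are related to a usual subunit, are described apart. Their sum stood at 161% to 176% of DMSO in the 4 AAI groups. Most of it is Cox7a2l, with means of 52.3 of 68.9 CPM in fl/fl DMSO and 77.0 of 117.8 CPM at 3 weeks. Of the 5 tested forms 3 were higher and 2 lower in fl/fl at 3 weeks, and 3 and 1 in PTKO. Their medians were 0.55 and 0.36, beside 0.45 and 0.42 for all tested genes. The sum thus does not show a rise of the class. Cox6b2, the testis form of subunit VIb, read 3.51, 3.30 and 1.90 CPM in fl/fl DMSO and 3.90, 5.003 and 4.09 CPM in PTKO DMSO. At 3 weeks it read 22.2, 21.1 and 29.5 CPM in fl/fl (2.71 ± 0.22 (SE), adjusted p = 2.01e-08) and 22.6, 33.9 and 43.3 CPM in PTKO (2.64 ± 0.22 (SE), adjusted p = 5.35e-08). No AAI library overlapped with DMSO, and both calls held in every alternative.

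At 6 weeks Cox6b2 had come partway down, to 10.4, 9.72 and 14.6 CPM in fl/fl, against 15.2, 15.6 and 15.9 CPM for PTKO. It was still higher than DMSO (1.69, adjusted p = 4.96e-06 in fl/fl and 1.64, adjusted p = 1.26e-05 in PTKO) and lower than at 3 weeks, with a difference of -1.01 in both genotypes (adjusted p = 0.00899 and 0.0108). The difference from 3 weeks was not called in fl/fl without 3 weeks replicate 3 or 6 weeks replicate 2, nor in PTKO without 3 weeks replicate 3 or with only the groups compared in the fit. Its usual counterpart Cox6b1 read 342, 353 and 353 CPM in fl/fl DMSO and 296, 308 and 298 CPM at 3 weeks. Per kilobase of transcript, Cox6b2 made up 0.923% ± 0.285 of the 2 genes in fl/fl DMSO and 8.27% ± 1.52 at 3 weeks, and 1.20% ± 0.120 and 9.84% ± 2.66 in PTKO (SD, n = 3).

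**Figure D4:**
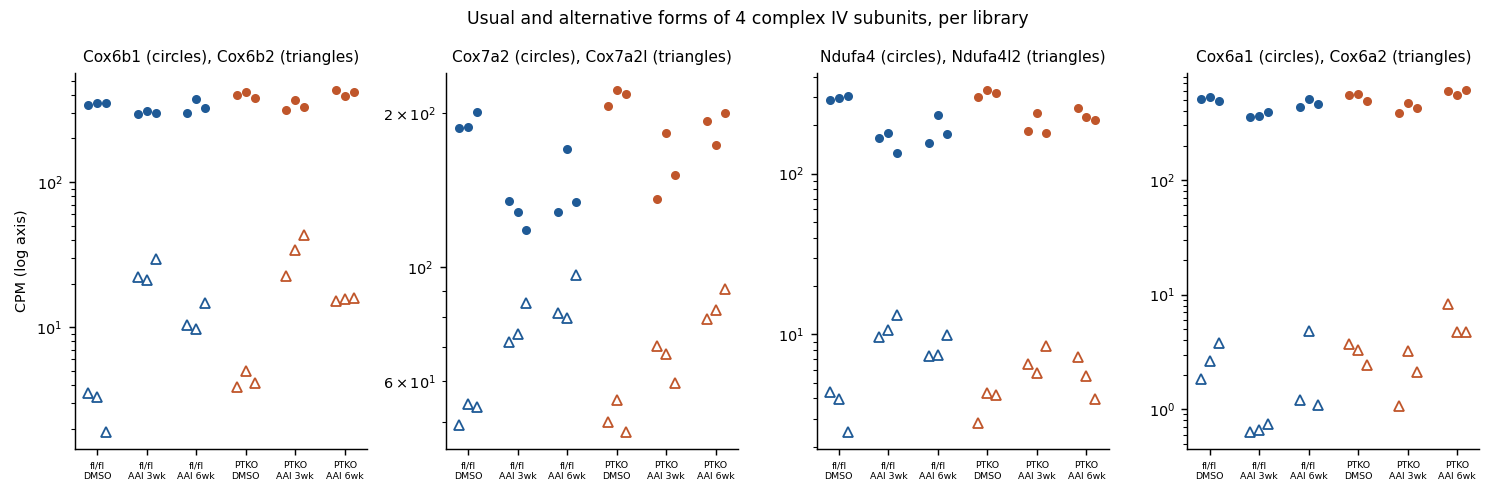
CPM of 4 pairs of complex IV genes in each library (y axis, log scale) by group (x axis), with the usual subunit as filled circles and the related form as open triangles. Fl/fl is blue and PTKO is orange. Cox6b2 lay between 1.90 and 5.003 CPM in the DMSO libraries and between 21.1 and 43.4 CPM at 3 weeks, while Cox6b1 stayed between 296 and 430 CPM in all libraries.

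Cox7a2l, known for its part in joining complexes III and IV into supercomplexes, read 49.3, 54.2 and 53.4 CPM in fl/fl DMSO, 71.6, 74.0 and 85.2 CPM at 3 weeks and 81.5, 79.6 and 96.7 CPM at 6 weeks. In PTKO it read 49.999, 55.2 and 47.8 CPM with DMSO, then 70.1, 67.9 and 59.4 CPM and, at 6 weeks, 79.2, 82.7 and 90.8 CPM. Every AAI library stood above every DMSO library of its genotype. The changes were called at both times in both genotypes (0.55 and 0.70 in fl/fl, 0.36 and 0.71 in PTKO), but at 3 weeks they are close to the rise of the median gene (0.45 and 0.42). With median-of-ratios scaling the 3 week change was 0.09 in fl/fl and turned to -0.08 in PTKO, and the 6 week changes were 0.23 (adjusted p = 0.0338) and 0.32 (adjusted p = 0.00586). Against its usual relative Cox7a2, per kilobase, Cox7a2l made up 14.01% ± 0.607 in fl/fl DMSO, 26.7% ± 3.10 at 3 weeks and 26.5% ± 4.22 at 6 weeks.

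Ndufa4l2, the relative of Ndufa4 that is known to rise in hypoxia, read 4.36, 3.96 and 2.48 CPM in fl/fl DMSO, 9.70, 10.7 and 13.3 CPM at 3 weeks (1.42 ± 0.22 (SE), adjusted p = 1.89e-05) and 7.38, 7.42 and 9.98 CPM at 6 weeks (1.02 ± 0.22 (SE), adjusted p = 5.35e-04). Fl/fl libraries with AAI all stood above those with DMSO. In PTKO it read 2.80, 4.33 and 4.20 CPM in DMSO, 6.57, 5.77 and 8.47 CPM at 3 weeks (0.73, adjusted p = 0.00657) and 7.22, 5.52 and 3.99 CPM at 6 weeks (0.45, not called). The PTKO change at 3 weeks turned to -0.21 with quantile normalization and was 0.36 and not called with median-of-ratios scaling. The fl/fl change at 6 weeks was 0.04 and not called with quantile normalization, and 0.62 and called with median-of-ratios scaling. Pericytes also express this gene. Summed over the 8 pericyte markers, CPM ranged from 146 to 209 in fl/fl DMSO and 396 to 483 at 3 weeks, and from 143 to 189.6 and 313 to 468 in PTKO. Of 7 tested markers 5 were higher and 2 lower in fl/fl at 3 weeks, where 58% and 18.2% of all tested genes were. The part of the pericyte markers in the result was not tested.

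Cox6a2 and Cox7a1, the heart and muscle forms of subunits VIa and VIIa, fell in fl/fl at 3 weeks. Cox6a2 read 1.82, 2.64 and 3.805 CPM in DMSO and 0.634, 0.656 and 0.742 CPM at 3 weeks (-1.13 ± 0.35 (SE), adjusted p = 0.00743), and Cox7a1 5.45, 7.42 and 7.61 CPM, then 4.67, 4.22 and 3.84 CPM (-0.57 ± 0.18 (SE), adjusted p = 0.0106). At 6 weeks both were higher in PTKO than in fl/fl. Cox6a2 in fl/fl stood at 1.20, 4.78 and 1.08 CPM, against 8.20, 4.68 and 4.71 CPM for PTKO (1.17, adjusted p = 0.0342), and Cox7a1 at 6.18, 6.23 and 4.79 CPM, against 7.84, 9.36 and 12.7 CPM (0.69, adjusted p = 0.0236). For Cox6a2 the fl/fl library with 4.78 CPM is replicate 2, so the groups overlapped. The 8 striated muscle markers summed to no more than 3.94 CPM in any library.

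Cox8b, the heart and muscle form of subunit VIII, also marks brown fat. It was below the filter, with 3.13 CPM in PTKO DMSO replicate 2 and 8.57 CPM in PTKO 6 weeks replicate 2, and at most 0.199 CPM in the other libraries. These are the libraries with Ucp1 and Adipoq. Cox7a1, which brown fat also expresses, read 7.94 CPM in the first, the highest of its group, and 9.36 CPM in the second, the middle of its group. The part of fat in these values was not tested.

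The other members below the filter were Ndufs5, Cox7b2 and Cox8c, which were at 0 in all 18 libraries, and Cox4i2, Atp5g2 and Atp5l, whose means were 0.518, 0.319 and 0.432 CPM. A count of 0 allows up to 3 reads, or 0.110 to 0.256 CPM by library. Ndufs5 and Atp5l encode ordinary subunits of complexes I and V, and nothing is read from their levels here. Cox7c, at 0.188 to 1.18 CPM, and Atp5g1, at 3.21 to 5.54 CPM, are low for usual subunits in the same way. Of the 92 members, 33 share over 10% of their 31-base words with transcripts of another gene, such as a processed pseudogene, so their counts are uncertain. Ndufs5 shares 26.5%.

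Genes of electron carriers and of ubiquinone synthesis were also mostly lower. Of 16 tested genes for cytochrome c, ubiquinone synthesis and electron transfer flavoprotein, 14 were lower in fl/fl and 13 in PTKO at 3 weeks. At 6 weeks 12 and 10 were lower, and none was higher at either time. Of all tested genes 18.2%, 13.9%, 13.9% and 11.4% were lower in that order, and 58%, 57.2%, 59.8% and 53.7% higher. The sums of the 16 genes stood at 48.0%, 59.3%, 57.1% and 70.2% of DMSO, in the same order. Etfa, which takes electrons from fatty acid oxidation, changed by -1.72 ± 0.14 (SE), adjusted p = 2.11e-08 in fl/fl at 3 weeks, and Coq9, needed for ubiquinone synthesis, by -1.36 ± 0.11 (SE), adjusted p = 1.48e-08. Cycs, the somatic cytochrome c gene, read 9.69, 13.2 and 10.6 CPM in fl/fl DMSO and 6.23, 4.97 and 3.97 CPM at 3 weeks (-1.01, adjusted p = 6.06e-04). This level is far under that of Cyc1. Words shared with other transcripts were counted only for the members, so how certain the count of Cycs is cannot be said.

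The known regulators did not move as a block. Of 18 tested in fl/fl at 3 weeks 10 were lower and 6 higher, and in PTKO 5 and 5, beside 58% and 57.2% of all tested genes called higher and 18.2% and 13.9% called lower. Ppargc1a, the coactivator that drives mitochondrial genes, read 94.1, 122 and 116 CPM in fl/fl DMSO, 64.6, 72.8 and 47.6 CPM at 3 weeks (-0.85 ± 0.20 (SE), adjusted p = 0.00121) and 104, 99.6 and 87.7 CPM at 6 weeks (-0.19, not called). Esrra, the receptor ERR alpha, read 126, 124 and 116 CPM in DMSO, then 75.7, 75.1 and 80.3 CPM and, at 6 weeks, 80.8, 86.2 and 83.3 CPM, and was lower at both times (-0.65, adjusted p = 7.25e-07 and -0.54, adjusted p = 8.36e-06). Nrf1 was called higher, from 18.8, 18.04 and 18.7 CPM to 30.9, 29.5 and 28.7 CPM at 3 weeks (0.65, adjusted p = 2.85e-05). Pprc1 and Gabpb1 were also higher, by 1.43 and 0.92. The median of all tested genes was 0.45 in this comparison, so much of the rise of Nrf1 is shared by the median gene. In PTKO at 3 weeks Ppargc1a read 81.9, 86.0 and 79.4 CPM against 113, 109 and 105 in DMSO (-0.40, adjusted p = 0.0871).

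Members with longer transcripts tended to have the larger falls. Over the 80 tested members without the alternative forms, the rank correlation of median coding transcript length with the log2 change was -0.496 in fl/fl and -0.382 in PTKO at 3 weeks, and -0.389 and -0.363 at 6 weeks. Over 13536 tested genes with a length it was 0.014 and 0.075, then 0.036 and -0.01. With the longest coding transcript in place of the median it was -0.521 and -0.403 at 3 weeks. The genes share the same libraries and are not independent, so no p is given. Some of the longer members are also catalytic subunits, such as Sdha (1811 bases) and Atp5b (1916 bases), and the part of length and of role was not tested. Ndufs1, the member with the largest fall, has a median length of 651 bases. This median counts every annotated coding transcript, short ones included, and can lie under the length of a gene's main transcript. Ndufs1 is therefore not read as an exception. For the difference between genotypes the value was 0.449 at 3 weeks and 0.01 at 6 weeks.

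**Figure D5:**
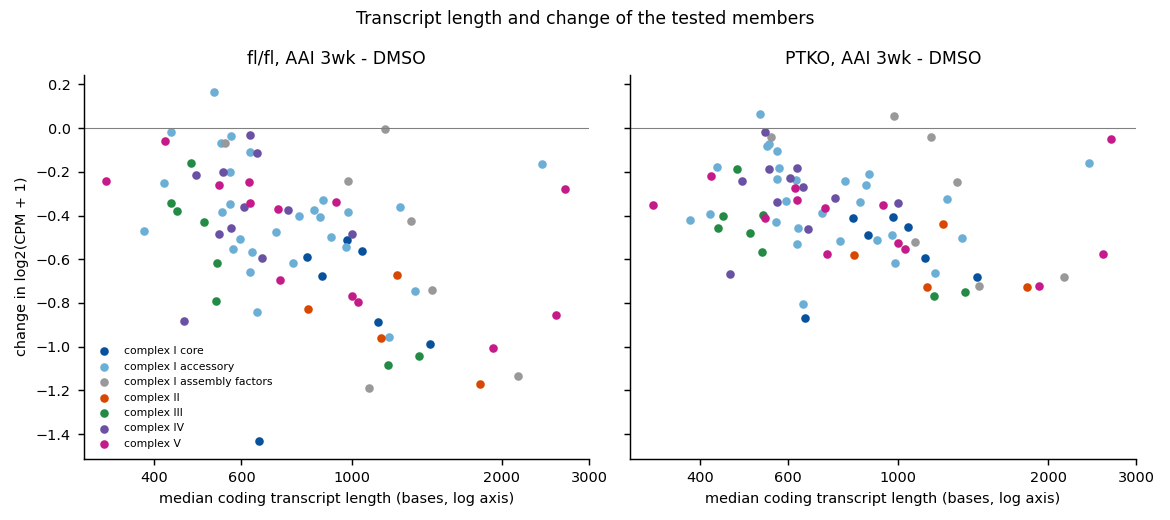
Change of each tested member at 3 weeks of AAI against DMSO (y axis, difference in log2(CPM + 1)) by the median length of its coding transcripts in GENCODE M21 (x axis, bases, log scale), for fl/fl and PTKO. Points are genes coloured by class, without the alternative forms. The points slope downwards in both panels, with rank correlations of -0.496 and -0.382.

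Cell type markers moved with these results. Against DMSO, 58%, 59.8%, 57.2% and 53.7% of all tested genes were called higher (fl/fl 3 and 6 weeks, PTKO 3 and 6 weeks). The shares called lower were 18.2%, 13.9%, 13.9% and 11.4%, in that order. In PTKO against fl/fl, 6.22% were higher and 8% lower at 3 weeks, and 3.27% and 11.8% at 6 weeks. The 12 proximal tubule markers were all lower in fl/fl at 3 weeks, and their sum ranged over 20632 to 21367 CPM in fl/fl DMSO, 3086 to 5474 at 3 weeks and 4239 to 6776 at 6 weeks. In PTKO it ranged over 20782 to 23898 CPM in DMSO, 5847 to 8594 at 3 weeks and 7173 to 9372 at 6 weeks, with 11 and 8 of 12 lower. Between genotypes 10 of 12 were higher in PTKO at 3 weeks and 4 of 12 at 6 weeks. The macrophage markers, 9 of 9 tested, were higher in all 4 AAI groups, with sums of 141 to 210.1 CPM in fl/fl DMSO and 6072 to 10054 at 3 weeks, and 143 to 159.7 and 1948 to 4051 in PTKO. All 9 were lower in PTKO than in fl/fl at 3 weeks and 6 of 9 at 6 weeks.

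Fibroblast markers were 7 of 7 higher in fl/fl at both times and in PTKO at 3 weeks, and 5 of 7 in PTKO at 6 weeks. T and B cell markers were 5 of 5 higher in fl/fl at both times and 4 of 5 in PTKO. The 5 thick ascending limb markers, of a segment also rich in mitochondria, had 4 lower and none higher in fl/fl at 3 weeks, and 2 higher in PTKO at 6 weeks, when their sum ranged from 5788 to 13618 CPM against 3558 to 5756 in PTKO DMSO. Of the 4 distal convoluted tubule markers 2 were lower and none higher in fl/fl at 3 weeks, and 1 was lower and 2 higher in PTKO at 6 weeks, where their sum stood at 129% of DMSO. Of the 6 collecting duct markers 3 were lower and 1 higher in fl/fl at 3 weeks. At 6 weeks 1 was lower and 3 were higher in each genotype, with the sum at 120.1% in fl/fl and 192% in PTKO. For these 3 segments the counts of higher markers at 6 weeks do not exceed the share over all tested genes. That share was 59.8% in fl/fl and 53.7% in PTKO. The sum of all members fell to 62.4% in fl/fl at 3 weeks while the proximal tubule sum fell to 19.6%. The part of these shifts in the results was not tested.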

How the data were processed

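Stranded total RNA libraries were made from 18 kidney cortex samples. The submitters' processing notes name kallisto, bcl2fastq 2.19 and the build mm10, and the authors deposited 1 table of CPM, with 24062 genes and no further description of the counting. Each value was a whole number of reads within 0.01 reads (100% of 433116 values), which gave each library's depth and the value of 1 read. The 92 members and all lists were chosen with earlier results of these data known.

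Values were tested as log2(CPM + 1) with limma 3.58.1 in R 4.3.3, with a variance trend and 6 group means over 18 libraries (12 residual degrees of freedom). The test was two-sided, with Benjamini-Hochberg adjustment over the 14604 genes that reached 1 CPM in 3 or more libraries. A call is an adjusted p under 0.05. All fold changes are on the log2(CPM + 1) scale, which understates those of low genes, and intervals cover 95%. The 11 comparisons were AAI against DMSO, PTKO against fl/fl, 6 against 3 weeks, and 2 interactions of genotype with AAI. Limits set by a count of 0 cover counting error only.

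Members were named by class (the highest mean CPM and the largest fall), if called higher after AAI, if in complex II or in a set of paralogs, if below the filter, and by the 8 smallest adjusted p in the other comparisons. Further members, such as those not called, Ndufv1 and Ndufc2, were chosen after their values were seen. Some genes that these criteria give are left unprinted, and 1 item is not reported here. Alternatives were pseudocount 0.1, no filter or a minimum of 5 CPM, median-of-ratios scaling, quantile normalization, the compared groups alone, a replicate block, no trend, edgeR 4.0.16 and DESeq2 1.42.0 on recovered reads, each library left out and, added after seeing the data, the 3 libraries that stand apart left out. The scripts were tested on simulated data. Promoters and lengths came from RefSeq (GRCm38.p6) and GENCODE M21.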

Additional observations from a re-analysis of the deposited data

How the results depend on the processing

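Of 187 changes of named members, 90 kept direction and call under every alternative. Of the calls against DMSO, 60 of 67 (fl/fl 3 weeks), 39 of 56 (fl/fl 6 weeks), 46 of 66 (PTKO 3 weeks) and 10 of 28 (PTKO 6 weeks) were kept under every alternative, and none of the 11, 40, 13 and 31 calls between genotypes at 3 and 6 weeks and between times in fl/fl and PTKO. The 23 members lower in PTKO at 6 weeks became 70 with DESeq2 and 70 with median-of-ratios scaling, 63 with edgeR, 36 after quantile normalization, 13 without the 3 libraries that stand apart, and 14 to 23 with 1 library left out. The 11 higher in PTKO at 3 weeks became 7 with no filter, 2 with the compared groups alone, 22 with DESeq2, 18 without the 3 libraries and 0 to 22 with 1 left out. The 39 at 6 weeks became 61 with median-of-ratios scaling, 0, 66 and 67 with the compared groups alone, DESeq2 and without the 3 libraries, and 3 to 66 with 1 left out. The rise from 3 to 6 weeks in fl/fl, 11 members, became 5 with median-of-ratios scaling, 0 with the compared groups alone, 6 with edgeR, 0 without the 3 libraries and 1 to 14 with 1 left out. In PTKO, 30 became 0 with the compared groups alone, 45 with DESeq2, 42 without the 3 libraries and 4 to 38 with 1 left out. The interaction at 6 weeks, 0, became 2 without the 3 libraries and 0 to 1 with 1 left out. Except where fewer samples entered the fit, the cause was not tested.

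Signs turned for Cox7a2l in PTKO at 3 weeks (-0.08 with median-of-ratios scaling, -0.07 with edgeR, -0.09 with DESeq2) and Ndufa4l2 there (-0.21 after quantile normalization), and in PTKO at 6 weeks for Cox5b (-0.02 with median-of-ratios scaling and DESeq2), Ndufa7 (-0.06, -0.03 and -0.06 with median-of-ratios scaling, edgeR and DESeq2), Cox7a1 (-0.25) and Atp5g3 (0.03), the last 2 with quantile normalization.

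The labels do not say what the replicate numbers mean. Of 45 same-numbered pairs, 10 had correlated deviations over 0.1, and 6 of 18 libraries correlated best with their own number. The correlations of these pairs ranged from -0.372 to 0.491, with a median of 0.008, beside 0.006 for the other pairs. They cannot show whether libraries of the same number were handled together. With the replicate block the lower calls against DMSO were 63, 53, 64 and 22 (fl/fl 3 and 6 weeks, PTKO 3 and 6 weeks), the members called between genotypes 0 under DMSO, 10 higher in PTKO at 3 weeks, and 38 higher and 1 lower at 6 weeks, the higher calls at 6 against 3 weeks 11 and 28 (fl/fl and PTKO), and the interactions 0 and 0.

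Depth limits members near 1 CPM, such as Cox7c and Cox6a2, where 1 read is worth 0.0367 to 0.0853 CPM.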
